A study of Mus musculus with 4 samples.

Results

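The MHC class I and peptide loading genes are 10 genes of the deposited table, matched by gene name among 39186 genes. They are *H2-K1*, *H2-D1*, *B2m*, *Tap1*, *Tap2*, *Tapbp*, *Nlrc5*, *Psmb8*, *Psmb9* and *Psmb10*. All 10 were found, and all 10 passed the filter for testing, a mean normalized count of at least 1 over the samples. They were read in bulk RNA sequencing of LSK cells (Lin-Sca-1+c-Kit+), the fraction that holds blood stem and early progenitor cells, sorted from mouse fetal liver. There were 2 *Pich*-KO and 2 *Pich*-WT samples, all on C57BL/6 and with no treatment named. The *Pich*-KO line carries a deletion of 10 bases in exon 2 of *Pich* (listed as *Ercc6l*), an X-linked gene for a DNA translocase that binds anaphase bridges, in every cell and not only in blood. The study's cell sorting methods name E14.5 embryos as the source of fetal livers. Whether each sample came from 1 embryo or a pool is not given in the sources used here. The p-values below thus speak only of the spread between these samples, which the main test shares between genes of like expression. The study asked how the transcriptome of LSK cells differs without PICH.

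MHC class I molecules show fragments of the cell's own proteins to cytotoxic T cells and are read by natural killer cells. A polymorphic heavy chain (H2-K1 or H2-D1) pairs with beta-2 microglobulin (B2m) and is filled in the endoplasmic reticulum with peptides that proteasomes cut in the cytosol, that the Tap1 and Tap2 transporter carries across the membrane and that tapasin (Tapbp) helps to load. Interferon-inducible proteasome subunits (Psmb8, Psmb9 and Psmb10) replace constitutive ones and shift the cuts, and Nlrc5 is the transactivator that works at class I promoters together with RFX, CREB/ATF and NF-Y factors.

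The samples held 14703215 to 20933919 reads on genes. *Ercc6l* transcripts were counted at 1142 and 1232 normalized counts in *Pich*-KO, against 772 and 661 in *Pich*-WT, and since a small deletion leaves its transcript countable, this level does not check the genotype. *Pich*-WT sample 2 stood apart in sex, with 0 reads on 4 Y-linked genes and 699 on *Xist*, against 1607 to 2848 and 4 to 13 in the other samples. Markers of other cell types differed between the groups, although none of them was at 0 in every sample. All 12 macrophage markers were lower in *Pich*-KO (limma, adjusted p of 0.05), with summed normalized counts of 8023 to 9149 in *Pich*-KO and 59362 to 60902 in *Pich*-WT, and *Adgre1* and *Csf1r* among them. All 8 erythroid markers, *Hba-a1* and *Hbb-bs* included, were lower (summed counts of 27661 to 29936 against 131769 to 172827), as were all 8 endothelial markers, *Pecam1* and *Cdh5* included (3638 to 5126 against 23446 to 33338). Of the 8 neutrophil markers *Mpo* and *Prtn3*, both also made by early myeloid progenitors, were higher, and these 2 held most of the list's summed counts of 63591 and 118083 in *Pich*-KO samples 1 and 2 against 16446 to 19054. The other 6 neutrophil markers did not pass the threshold, and their summed counts of 2108 and 12321 in *Pich*-KO samples 1 and 2 lay below and above the 4627 and 4914 of *Pich*-WT. Lower genes also numbered 4 of 8 dendritic cell, 4 of 10 lymphocyte and NK cell and 5 of 8 hepatocyte markers, with none higher. Of the 10 LSK markers *Ly6a*, the Sca-1 gene of the sort gate, was higher, *Kit* was not past the threshold and 4 were lower. Named after their values had been seen, these 4 were *Procr* (log2 fold change −2.88), *Hlf* (−2.37), *Mecom* (−2.10) and *Slamf1* (−0.90). The part of these differences in the results below was not tested, and in bulk samples a change in the cells present and a change in RNA per cell cannot be told apart.

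Of the 10 class I and peptide loading genes, 8 were higher in *Pich*-KO than in *Pich*-WT LSK cells and none was lower (limma on log2(normalized count + 1), adjusted p of 0.05). Of all 32428 genes tested, 7.58% were higher and 9.6% lower, and of the 4115 whose mean reached 1000 normalized counts, 31.3% were higher. The median log2 fold change of the 10 genes was 0.74, against 0.02 over all genes tested. The 2 genes not past the threshold were *Tap2* and *Tapbp*. *Nlrc5* changed most, by a log2 fold change of 2.54, and the 8 higher genes otherwise ran from 0.57 for *Psmb10* to 1.06 for *Tap1*. Both *Pich*-KO samples lay above both *Pich*-WT samples for 9 of the 10 genes, with *Tapbp* the exception, where 28.9% of all genes tested did so.

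**Figure D1:**
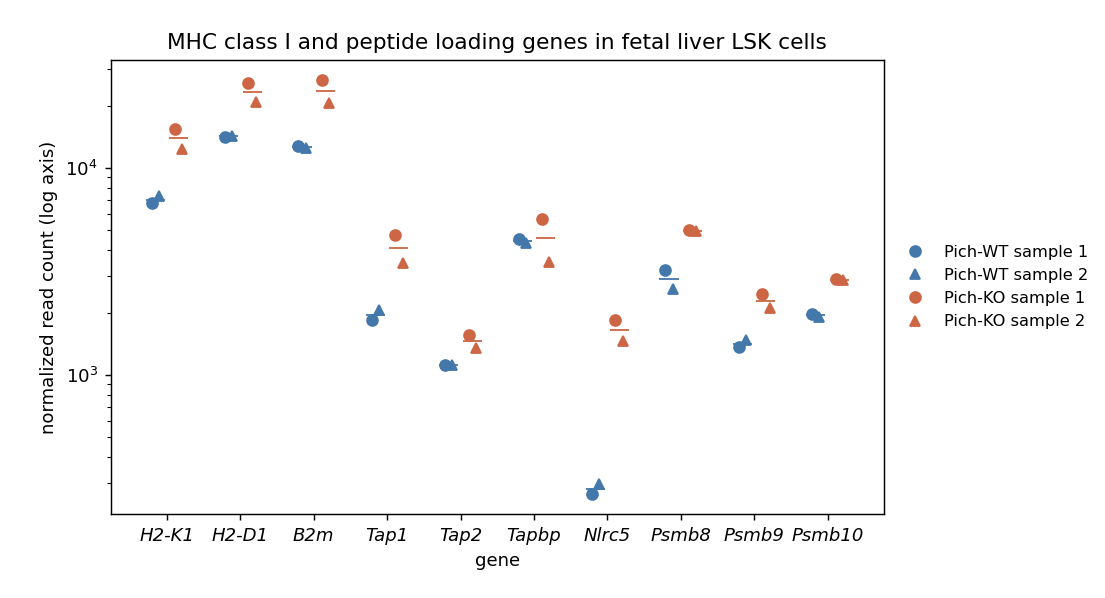
Normalized read counts (log axis) of the 10 MHC class I and peptide loading genes in each of the 4 LSK samples, with a line at each group's mean (n = 2). Both Pich-KO samples sit above both Pich-WT samples for every gene but Tapbp, and the gap is widest for Nlrc5 (1652 against 282).

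The promoter letters that bear on these genes are shown first, because class I genes are classically controlled through a shared module upstream of the start. RefSeq promoter windows (GRCm38.p6, 250 bases before to 50 after each start) were matched by symbol for 8 of the 10 genes, all but *Tap2* and *Nlrc5*. Capitals mark the motif letters found on either strand: NF-kB by its name, TGACG (a CREB/ATF core) and CCAAT (read as ATTGG on the other strand, the NF-Y core). *B2m* also shows an interferon-stimulated response element (ISRE) core, GAAA, any 2 bases and GAAA again, and *Psmb8* shows TTCNNNGAA, a STAT core. The ISRE core was searched only in this exact form, so any looser forms, in the heavy chain genes too, were not counted. The *H2-K1* stretch is chr17:34000349-34000468 on the minus strand, that of *H2-D1* chr17:35262913-35263055 on the plus strand, that of *B2m* chr2:122147538-122147648 on the plus strand and that of *Psmb8* chr17:34198088-34198116 on the plus strand. *H2-K1* has 2 RefSeq windows, with different starts, and its stretch is taken from 1 of them. A further CCAAT, past the start in that window and so not shown, begins 6 bases upstream of the start in the other.
H2-K1: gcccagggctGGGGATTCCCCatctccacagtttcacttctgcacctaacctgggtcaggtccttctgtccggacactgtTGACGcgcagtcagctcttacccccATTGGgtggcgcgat
H2-D1: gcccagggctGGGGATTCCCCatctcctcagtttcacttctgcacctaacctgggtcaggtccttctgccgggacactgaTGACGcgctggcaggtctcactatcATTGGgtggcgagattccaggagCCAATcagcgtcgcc
B2m: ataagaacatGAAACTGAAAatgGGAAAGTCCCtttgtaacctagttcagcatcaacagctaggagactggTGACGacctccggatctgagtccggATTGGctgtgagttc
Psmb8: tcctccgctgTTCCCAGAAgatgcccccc

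In *H2-K1*, *H2-D1* and *B2m*, an NF-kB match, a TGACG and an ATTGG followed each other in this order toward the start. In the 2 heavy chain genes, 2 NF-kB matches overlap in the run of capitals. The share of all 32851 RefSeq windows that held each motif was 4.51% for NF-kB, 20.8% for TGACG, 37.4% for CCAAT, 3.44% for the ISRE core and 8.3% for TTCNNNGAA. Among the 8 class I genes with a window, counted as genes and not as windows, the numbers were 3, 5, 6, 1 and 1. *H2-K1* with its 2 windows counts once, and *Tap1* and *Psmb9* count for the same TGACG and CCAAT. The printed stretches of *H2-K1* and *H2-D1* are near copies of each other, so their matches are not independent. The RefSeq starts of *Tap1* and *Psmb9* have 225 bases between them and point away from each other, so the same stretch lies upstream of both genes, and it is shown for that reason, from chr17:34187331-34187555 on the plus strand.
Tap1 and Psmb9: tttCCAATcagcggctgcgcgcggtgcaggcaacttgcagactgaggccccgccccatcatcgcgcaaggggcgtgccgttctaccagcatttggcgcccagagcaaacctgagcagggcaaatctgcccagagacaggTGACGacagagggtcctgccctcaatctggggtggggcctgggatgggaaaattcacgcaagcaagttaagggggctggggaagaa

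It held 1 CCAAT, near the *Psmb9* start, and 1 TGACG, nearer to the *Tap1* start, and none of the other 3 motifs. A match describes letters, not a bound site or a cause, and the absence of a match says only that these letters are not in the window. The deposited gene models of *H2-D1*, *Psmb8* and *Psmb9* begin upstream of the RefSeq start, so the letters printed for them lie inside those models.

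*Nlrc5* (ENSMUSG00000074151, chromosome 8, 94434356 to 94527272, plus strand), the class I transactivator, had 1847 and 1458 normalized counts in *Pich*-KO samples 1 and 2, against 267 and 297 in *Pich*-WT samples 1 and 2. Both *Pich*-KO values were several times as high as either *Pich*-WT value, and the groups were far apart. Here and below, paired values are those of sample 1 and then sample 2. The means were 1652 ± 274 (SD, n = 2) and 282 ± 21 (SD, n = 2), a 5.86-fold ratio. The log2 fold change was 2.54 (standard error, SE, 0.16; 95% interval 2.16 to 2.92; limma adjusted p = 7.47e-05), and 99.5% of all genes tested had a lower one. Per kilobase of gene model, *Nlrc5* remained the lowest of the 10 genes in both groups, at 195 normalized counts in *Pich*-KO and 33.2 in *Pich*-WT. Gene models can be longer than the transcript, at 3659 bases for *Psmb9* against 1352 in its longest protein-coding transcript, and 860 in both for *B2m*. Levels per length of different genes, here and below, carry that limit.

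Among the subunits of the class I molecule itself, both classical heavy chains and their shared light chain were higher. *H2-K1* (ENSMUSG00000061232, chromosome 17, 33996017 to 34000333, minus strand) had 15440 and 12353 normalized counts in *Pich*-KO, against 6740 and 7279 in *Pich*-WT. *H2-D1* (ENSMUSG00000073411, chromosome 17, 35262730 to 35267499, plus strand) had 25725 and 20783 in *Pich*-KO, against 14132 and 14292 in *Pich*-WT. *B2m* (ENSMUSG00000060802, chromosome 2, 122147686 to 122153083, plus strand) had 26430 and 20617 in *Pich*-KO, against 12716 and 12424 in *Pich*-WT. For these 3 genes *Pich*-KO sample 1 was the highest and the groups did not overlap, although the *Pich*-KO samples differed more from each other than the *Pich*-WT samples did. *H2-K1* rose from 7009 ± 381 to 13896 ± 2183 (SD, n = 2 each), or by 0.98 on the log2 scale (SE 0.11, limma adjusted p = 0.000778). *H2-D1* rose from 14212 ± 113 to 23254 ± 3495 (SD, n = 2 each), or by 0.70 on the log2 scale (SE 0.10, limma adjusted p = 0.00217). *B2m*, on another chromosome than the heavy chains, rose from 12570 ± 206 to 23523 ± 4110 (SD, n = 2 each), or by 0.89 on the log2 scale (SE 0.11, limma adjusted p = 0.00116).

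These 3 were also the most abundant of the 10 genes per length of gene model. Per kilobase, the mean level of *B2m* was 27353 normalized counts in *Pich*-KO and 14616 in *Pich*-WT, that of *H2-D1* 9017 and 5511, and that of *H2-K1* 5328 and 2688. In *Pich*-WT the level of *B2m* was above that of 99.9% of the genes tested. The order of the 3 levels was the same in both groups. The heavy chain counts carry a limit, because the genes of this family are near copies of each other. Of the 50-base windows of the *H2-K1* transcript, 8.79% also occur in transcripts of other genes, *H2-D1* foremost, and of those of *H2-D1* 14.3%, *H2-Q1* foremost, and how such reads were assigned is not given in the sources used here.

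Of the 3 genes of peptide transport and loading, *Tap1* passed the threshold. *Tap1* (ENSMUSG00000037321, chromosome 17, 34187553 to 34197225, plus strand), a subunit of the peptide transporter, had 4759 and 3486 normalized counts in *Pich*-KO, against 1846 and 2055 in *Pich*-WT. *Tap2* (ENSMUSG00000024339, chromosome 17, 34203527 to 34216321, plus strand), its partner in the transporter, had 1559 and 1347 in *Pich*-KO, against 1119 and 1113 in *Pich*-WT. *Tapbp* (ENSMUSG00000024308, chromosome 17, 33915899 to 33929288, plus strand), which bridges the transporter and the empty heavy chain, had 5647 and 3530 in *Pich*-KO, against 4556 and 4361 in *Pich*-WT. For *Tap1* and *Tap2* the groups did not overlap, while for *Tapbp* the *Pich*-WT samples lay between the *Pich*-KO samples. *Tap1* rose from 1950 ± 148 to 4123 ± 900 (SD, n = 2 each), or by 1.06 on the log2 scale (SE 0.15, limma adjusted p = 0.00232). *Tap2* had 1453 ± 150 against 1116 ± 4.32 (SD, n = 2 each), a log2 fold change of 0.38 (95% interval 0.08 to 0.67, limma adjusted p = 0.0851), which did not pass the threshold. It passed in 3 of 15 alternative settings. Among these were edgeR on the recovered reads (adjusted p = 0.0324) and at least 10 reads required in every sample (limma adjusted p = 0.0371).

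*Tapbp* had 4588 ± 1497 against 4459 ± 138 (SD, n = 2 each), a log2 fold change of 0.00 (95% interval −0.44 to 0.44, limma adjusted p = 0.994). Its value hung on which *Pich*-KO sample was kept: with edgeR it was −0.31 without *Pich*-KO sample 1 (adjusted p = 0.0126) and 0.38 without *Pich*-KO sample 2 (adjusted p = 0.00303). Of all 10 genes *Tapbp* had the widest gap within *Pich*-KO, sample 1 being 1.60-fold sample 2. Transcripts of *Tapbp* share 21% of their 50-base windows with other genes, most with *Gm19412*, and those of *Tap2* share 12.6%, most with *Gm15821*. *Gm15821* lies within the *Tap2* gene on the opposite strand (chromosome 17, 34211312 to 34214459). Per kilobase of gene model, *Tap1* stood at 753 normalized counts in *Pich*-KO and 356 in *Pich*-WT and *Tap2* at 384 and 295, so that the transporter subunits lay closer to each other in *Pich*-WT than in *Pich*-KO.

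All 3 immunoproteasome subunits were higher in *Pich*-KO. *Psmb8* (ENSMUSG00000024338, chromosome 17, 34197721 to 34201454, plus strand), the beta5i subunit, had 5019 and 4940 normalized counts in *Pich*-KO, against 3203 and 2600 in *Pich*-WT. *Psmb9* (ENSMUSG00000096727, chromosome 17, 34181988 to 34187764, minus strand), the beta1i subunit, had 2463 and 2094 in *Pich*-KO, against 1358 and 1471 in *Pich*-WT. *Psmb10* (ENSMUSG00000031897, chromosome 8, 105935735 to 105938444, minus strand), the beta2i subunit, had 2890 and 2870 in *Pich*-KO, against 1976 and 1903 in *Pich*-WT. The groups did not overlap for any of the 3, and the *Pich*-KO samples were nearly level for *Psmb8* and *Psmb10*. The log2 fold changes were 0.79 for *Psmb8* (SE 0.12, limma adjusted p = 0.00265), 0.68 for *Psmb9* (SE 0.12, limma adjusted p = 0.007) and 0.57 for *Psmb10* (SE 0.10, limma adjusted p = 0.00564). In linear terms the means were 1.72-fold, 1.61-fold and 1.48-fold those of *Pich*-WT. The *Psmb9* gene model overlaps that of *Tap1* on the opposite strand, 12.5% of its 50-base windows recur in *Tap1* transcripts, and whether the counting used strand is not given in the sources used here.

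The constitutive proteasome was set beside it. All 14 constitutive 20S core subunits were higher in *Pich*-KO (limma, adjusted p of 0.05), with a median log2 fold change of 0.50. The changes ran from 0.32 for *Psma4*, 0.36 for *Psmb1* and 0.39 for *Psmb7* up to 0.60 for *Psma2*, 0.74 for *Psma5* and 0.79 for *Psmb3*. The constitutive catalytic subunits that the 3 interferon-inducible ones replace were among them, with log2 fold changes of 0.58 for *Psmb5* (limma adjusted p = 0.00703), 0.46 for *Psmb6* (limma adjusted p = 0.0225) and 0.39 for *Psmb7* (limma adjusted p = 0.0463). With edgeR and *Pich*-WT sample 2 left out, 9 of the 14 were higher.

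The ratio of each interferon-inducible subunit to its constitutive counterpart was then compared within samples. The size of each ratio depends on the gene model lengths, so only its difference between groups is read. Per length of gene model, the *Psmb8* level was 0.382 and 0.390 of that of *Psmb5* in *Pich*-KO, against 0.345 and 0.326 in *Pich*-WT. The *Psmb10* level was 2.69 and 2.50 of that of *Psmb7* in *Pich*-KO, against 2.24 and 2.33 in *Pich*-WT. For both pairs the *Pich*-KO samples lay above the *Pich*-WT samples. The *Psmb9* level was 0.225 and 0.161 of that of *Psmb6* in *Pich*-KO, against 0.149 and 0.177 in *Pich*-WT, and here the groups overlapped. The log2 ratio was higher in *Pich*-KO by 0.20 for *Psmb8* to *Psmb5*, by 0.18 for *Psmb10* to *Psmb7* and by 0.22 for *Psmb9* to *Psmb6*. Exact two-sided permutation tests gave p = 0.333, 0.333 and 0.667 (0.5, 0.5 and 0.667 after Benjamini-Hochberg adjustment over the 3 pairs), and 0.333 is the smallest p that 2 against 2 samples allow, so no pair could reach 0.05.

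**Figure D2:**
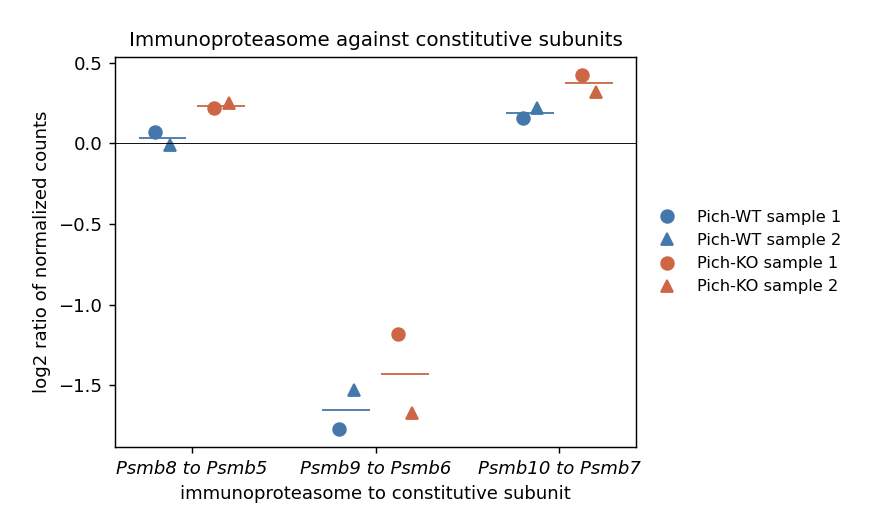
Log2 ratio of the normalized counts of each immunoproteasome subunit to the constitutive subunit it replaces, in the 4 samples, with a line at each group's mean (n = 2); the ratio is not divided by length, so only its difference between groups can be read. The Pich-KO samples lie above the Pich-WT samples for Psmb8 to Psmb5 and Psmb10 to Psmb7 (mean differences of 0.20 and 0.18), and the groups overlap for Psmb9 to Psmb6.

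Every one of the 10 genes was higher in *Pich*-KO sample 1 than in *Pich*-KO sample 2, where 48% of all genes tested were. The ratio of sample 1 to sample 2 ran from 1.01 for *Psmb10* to 1.60 for *Tapbp*. For the 8 higher genes the limma log2 fold change ran from 0.55 for *H2-D1* to 2.37 for *Nlrc5* without *Pich*-KO sample 1, and from 0.58 for *Psmb10* to 2.71 for *Nlrc5* without *Pich*-KO sample 2. Against *Pich*-WT sample 1 alone, which like the *Pich*-KO samples had Y-linked reads, it ran from 0.54 for *Psmb10* to 2.61 for *Nlrc5*. With edgeR on the recovered reads, which called 18.6% of the genes it tested higher, each of the 8 was higher, and so it was whichever sample was left out, at adjusted p-values of at most 0.0335. The genes called higher by edgeR were 20.2%, 17.2%, 9.67% and 9.62% without *Pich*-KO sample 1, *Pich*-KO sample 2, *Pich*-WT sample 1 and *Pich*-WT sample 2. The same 8 were not past the threshold in the limma fits with 1 sample left out (adjusted p from 0.0683 to 0.277) or without a variance trend (0.0852 to 0.233), settings in which limma called 0 of the 32428 genes.

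The genes that cut, escort and trim class I peptides around these members were taken as a list of 18, of which 10 were higher, none lower and 8 not past the threshold, with a median log2 fold change of 0.46. The largest changes were those of *Lnpep*, an endosomal aminopeptidase (1.5, limma adjusted p = 0.000529), and of the cytosolic chaperone genes *Hsp90aa1* (1.24) and *Hsp90ab1* (0.92). The smallest among those past the threshold were *Pdia3* (0.29) and *Calr* (0.46), 2 members of the peptide loading complex, and *Hspa5* (0.47), a chaperone of the endoplasmic reticulum. The other 4 that rose, named here after their values had been seen, were *Psme2* (0.55), *Tpp2* (0.53), *Erap1* (0.52) and *Psme1* (0.51), which code for proteasome activator subunits and for peptide-trimming peptidases. With no filter on low means, 6 of the 18 were higher.

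The other class I and class I-like heavy chains moved in both directions. Of 20 tested, 4 were higher, 4 lower and 12 not past the threshold, with a median log2 fold change of −0.14. *H2-T23*, the Qa-1 heavy chain that presents to the CD94/NKG2 receptors of natural killer cells, had 2272 and 1369 normalized counts in *Pich*-KO and 262 in each *Pich*-WT sample, a log2 fold change of 2.75 (SE 0.23, limma adjusted p = 0.000203). The other heavy chains of the T region that rose were *H2-T10* (2.19), *H2-T24* (1.66) and *H2-T22* (1.33), the last named after its value had been seen. *H2-T10* had only 16 and 32 reads in *Pich*-WT. Windows shared with other genes were not counted for these heavy chains, so reads common to several of them are not excluded. *Fcgrt*, the neonatal Fc receptor, fell from 4508 and 3858 normalized counts to 194 and 186, a log2 fold change of −4.45 (SE 0.14, limma). *Hfe*, a regulator of iron uptake, and *Mr1*, which presents microbial vitamin metabolites, fell, with log2 fold changes of −2.96 and −1.86, and so did *Cd1d1* (−0.79), which presents lipids and is named after its value had been seen. All macrophage, erythroid and endothelial markers given above, and part of the dendritic cell, lymphocyte and hepatocyte ones, were lower too. The part of any of those cells in these 4 falls was not tested.

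Of the 16 transcription factor genes reported here with a role at class I or interferon-responsive promoters, 3 were higher, 5 lower and 8 not past the threshold, with a median log2 fold change of 0.05. *Creb1* (1.15), which binds CREB/ATF cores, and *Stat2* (1.07) and *Irf9* (0.75), both parts of the interferon-stimulated complex, were the genes that were higher. *Ciita*, the class II counterpart of *Nlrc5*, had 17.5 and 17.1 normalized counts in *Pich*-KO, against 563 and 389 in *Pich*-WT, and its log2 fold change was −4.68 (SE 0.28, limma adjusted p = 5.98e-05). The related transactivator genes *Nlrc5* and *Ciita* thus differed between the groups in opposite directions. *Rfxap*, a subunit of the RFX complex that both transactivators use, fell, as did *Irf2*, with log2 fold changes of −1.21 and −0.75. Named after their values had been seen, the NF-kB genes *Rela* and *Nfkb1* fell (−0.65 and −0.55), and *Irf1*, a classic inducer of class I genes, had a log2 fold change of 0.08 (95% interval −0.18 to 0.33, limma adjusted p = 0.711).

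The class II presentation genes gave the contrast to class I. Of 12, none was higher, 9 were lower and 3 were not past the threshold, with a median log2 fold change of −1.55. The class II chains *H2-Aa* and *H2-Eb1* fell, with log2 fold changes of −7.70 and −7.66, as did the invariant chain *Cd74* (−5.96). The smallest falls past the threshold were those of *H2-DMa* (−1.02) and *H2-Ob* (−1.37), which act on class II peptide loading, and of *Ifi30* (−1.49), a lysosomal reductase. The *Pich*-KO samples also had lower normalized counts of the macrophage list and of 4 of 8 dendritic cell markers, cell types that carry class II, and their part in the class II values was not tested.

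**Figure D3:**
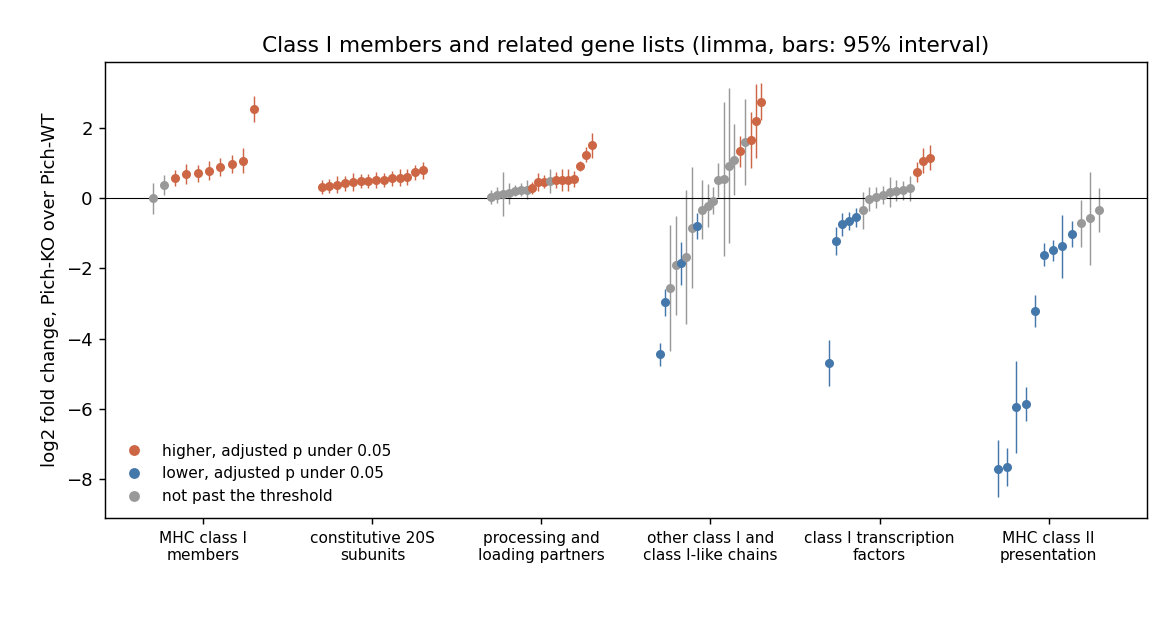
Log2 fold change (Pich-KO over Pich-WT, limma, bars are 95% intervals, n = 2 each) of every tested gene in the class I list and 5 related lists, coloured by the call at an adjusted p of 0.05. Genes past the threshold lie above 0 for the class I members (8 of 10), the 20S subunits (14 of 14) and the partners (10 of 18), on both sides for the other heavy chains and transcription factors, and below 0 for class II (9 of 12).

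By position, 7 of the 10 genes lie on chromosome 17, 2 on chromosome 8 and *B2m* on chromosome 2. From *H2-K1* to *H2-D1*, an interval of 1271 kb on GRCm38 (chromosome 17, 33996017 to 35267499), there are 6 of the members and 94 other tested genes. Of those 94, 9 were higher (9.57%) and 15 lower (16%), against 7.58% and 9.6% of all genes tested. Their median log2 fold change was −0.18. The lower ones included 6 of the 9 tested class II genes, which lie next to *Tap1*, *Tap2*, *Psmb8* and *Psmb9*. Higher class I genes and lower class II genes thus sat side by side within the interval, and 70 of the 94 were not past the threshold. With edgeR on the recovered reads, 14 of these neighbours were higher, and with no filter on low means 4 were.

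**Figure D4:**
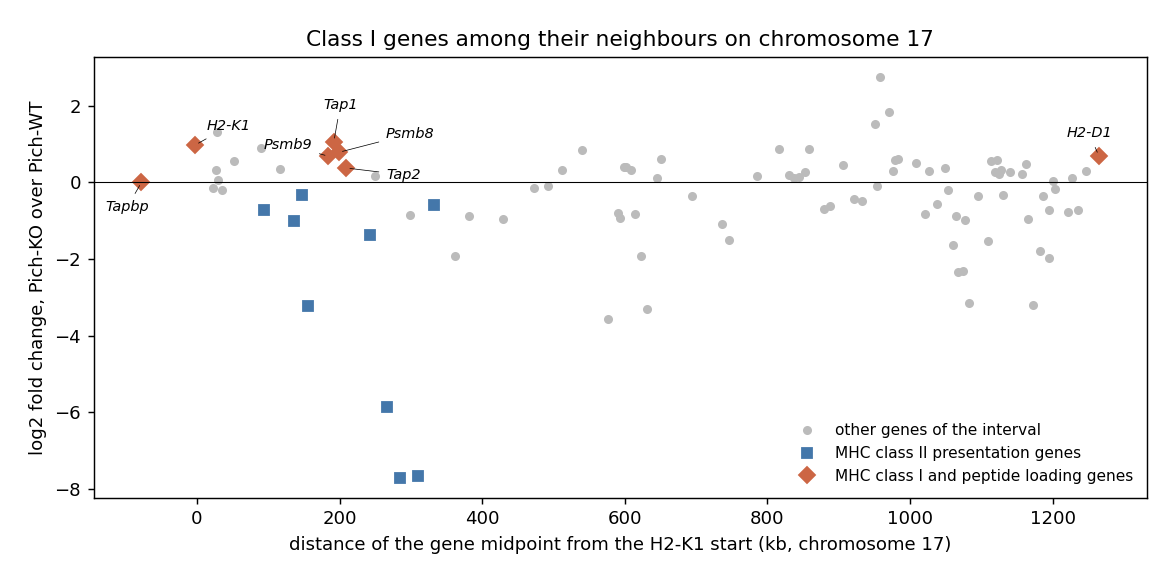
Log2 fold change (Pich-KO over Pich-WT, limma) of the tested genes from H2-K1 to H2-D1, and of Tapbp just before them, against the distance of each gene's midpoint from the H2-K1 start in kb. Diamonds mark the class I and peptide loading genes, squares the class II genes and dots the other genes; the diamonds of Tap1, Tap2, Psmb8 and Psmb9 lie above 0 next to class II squares that reach below −7.

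The log2 profiles of the 10 genes across the 4 samples, each centred on its own mean, were then compared. *B2m* lay nearest to the mean profile of the 10 genes, at a Euclidean distance of 0.0643 in log2 units over 4 samples, and *Nlrc5* farthest, at 1.68. *Tapbp* (0.901) and *Tap2* (0.487) came next after *Nlrc5*. Of 10534 other genes whose mean reached 100 normalized counts, the 5 closest to the mean profile were *Man2a2* (0.0397), a Golgi mannosidase gene, *Pag1* (0.0454), *Ogfr* (0.0511), *Morc2a* (0.0695) and *Cabin1* (0.0855). *Ogfr* had 3015 and 2501 normalized counts in *Pich*-KO, against 1554 and 1574 in *Pich*-WT, so it too was highest in *Pich*-KO sample 1. With 4 points in 2 groups, closeness reflects little more than the direction and size of the group difference.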

How the data were processed

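RNA from sorted LSK cells was made into TruSeq libraries, per the labels. The deposited table gives a normalized signal per gene, read counts that the authors divided by 1 size factor per sample, for 2 *Pich*-KO and 2 *Pich*-WT samples. The submitters' processing notes name Bowtie 0.12.2 and the builds mm8 and mm9, whereas 97.8% of the 39163 genes found in GENCODE M21 (GRCm38) have the same start and end there. How these steps were combined, and the counter, are not given in the sources used here. The authors' log2 fold change and p-value columns in the deposited table, which compare the same groups, were not used.

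Dividing by the worth of 1 read gave whole numbers for 100% of the values (tolerance 0.01 read), which were used as recovered reads. The genes were compared with limma 3.58.1 (R 4.3.3) on log2(value + 1), a scale that understates the change of low genes, for 32428 genes with a mean of at least 1. The prior variance was allowed to depend on expression, p-values were adjusted by the Benjamini-Hochberg method over all genes tested, and the threshold was 0.05. A count test was not the main one because the values are normalized. The alternatives were a pseudocount of 0.1, no filter, at least 10 reads in every sample, a replicate block, no variance trend, edgeR 4.0.16 with TMM, DESeq2 1.42.0 and leaving out each sample. Leaving out each sample with edgeR was added after the data had been seen. Replicates were not copies of each other (chi-square per degree of freedom of 17.7 in *Pich*-KO and 9.54 in *Pich*-WT). The procedure was also run on simulated data, as a check of the code and not of the calls made here.

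The members and gene lists were chosen with earlier results of these data known. Genes named are all members, *Psmb5*, *Psmb6* and *Psmb7*, the 3 largest and 3 smallest log2 fold changes past the threshold in each related list, the 5 nearest profiles and the first 2 genes of each marker list. Not matched in the table were *Nrdc* among the partners and *H2-Q8*, *H2-Q9* and *H2-T9* among the other heavy chains, and *H2-Q2* was below the filter. A transcription factor gene is not reported here and was left out of its list's counts after the list was set, while the fit kept all genes.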

Additional observations from a re-analysis of the deposited data

How the results depend on the processing

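With 2 samples per group the calls rest on the spread that limma shares between genes of like expression. Without a variance trend, and in limma fits without any 1 sample, 0 genes of the 32428 and so 0 in every list were called, although 7377 genes (7 members) without the trend and 8599, 7633, 5972 and 5757 genes (10, 10, 6 and 8 members) without *Pich*-KO sample 1, *Pich*-KO sample 2, *Pich*-WT sample 1 and *Pich*-WT sample 2 had an unadjusted p under 0.05. A fit with 1 sample in a group assumes that it varies like the other group. With edgeR, 9 of the 10 members were higher, and without each sample 8 to 10 were higher and 0 to 1 lower, with a median log2 fold change of up to 0.87. The lower one was *Tapbp*, whose log2 fold change reversed to −0.31 with edgeR and −0.34 with limma without *Pich*-KO sample 1 and to −0.03 without *Pich*-WT sample 2, and was 0.34 without *Pich*-KO sample 2. The *Psmb9* to *Psmb6* difference ran from −0.021 without *Pich*-KO sample 1 to 0.47 without *Pich*-KO sample 2. Over the edgeR fits without 1 sample, partners had up to 1 lower, the 20S subunits down to 9 higher and the chromosome 17 neighbours up to 16 higher. Without a filter 6 partners and 4 neighbours were higher, and with edgeR 14 neighbours were. The cause of these shifts was not tested. Each of the 8 higher members kept its call in 10 of 15 alternatives, *Psmb6* in 8 and *Psmb7* in 6. Over all genes, 3097 of 16608 (18.6%) were higher with edgeR and 2605 of 15635 with DESeq2.

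The groups share replicate numbers, but nothing says that a number marks a litter or batch, and the deviations of same-numbered samples had a correlation of 0.0133 over 10544 genes, which are not independent. With the replicate block 8 members were higher, none was lower, and 3122 and 3874 of all genes were higher and lower.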
